A study of Mus musculus with 45 samples.

Results

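Gpr139 is 1 gene of the 18135 in the deposited expression table of Shank3-mutant mice, and its level in all 45 samples is described here by brain region and genotype. It was selected on its measured cortical values, whose level stepped up with the number of mutant Shank3 alleles. The cortical genotype differences are therefore given as a description without a test, while those of the hippocampus and striatum, which took no part in that choice, were tested. RNA sequencing was carried out on prefrontal cortex (cortex), hippocampus and striatum from male C57BL/6J mice of 13 weeks, with 5 samples for each of 3 genotypes in each region. The genotypes were wild type (WT), heterozygous Shank3 mutant (Shank3-HT) and homozygous Shank3 mutant (Shank3-HM). The labels call the homozygotes knock-out and the value columns write KI for them. Shank3 encodes a scaffold protein of excitatory synapses, and the mutant allele lacks several consecutive exons. Every group was bred on the same strain, and pups of mixed genotype were reared together by shared mothers. The labels do not tie samples of different regions to the same animal. Whole-tissue RNA was measured, so fewer cells of a type and less RNA per cell cannot be told apart.

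Gpr139 is an orphan receptor of the rhodopsin-like class that signals mainly through Gq proteins. The aromatic amino acids L-tryptophan and L-phenylalanine activate it, melanocortin peptides have also been proposed as ligands, and it has been described as opposing mu-opioid receptor signalling. In the rodent brain it is best known from the medial habenula and the striatum. Its closest relative is Gpr142, which has no value in the table.

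Gpr139 (ENSMUSG00000066197) lies on the minus strand of chromosome 7 at 119140747 to 119184603 in GRCm38. The GENCODE annotation gives it 1 transcript of 4843 bases in 2 exons. Exon 1 (119184272 to 119184603) holds the start codon, and exon 2 (119140747 to 119145257) holds 93.1% of the transcript, including the stop codon and a 3′ UTR of 3579 bases. The coding sequence predicts 345 residues. All reads are summed in 1 value per sample, and no exon-level value was analysed here.

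The genotype labels were checked first on Shank3 itself. Cortical Shank3 averaged 8005 ± 725 normalized counts in the WT group, 6138 ± 373 in heterozygotes and 4054 ± 285 in homozygotes (SD, n = 5 each). The 3 genotypes did not overlap in any of the 3 regions, in the order WT, Shank3-HT, Shank3-HM. Transcript was still measured in Shank3-HM samples, and the deletion covers part of the gene only. The list of 20 genes of striatal spiny projection neurons summed to 334893 to 449005 normalized counts in the striatal samples, and to at most 20397 in 14 of the 15 cortical samples and 19336 in the hippocampal samples. Normalized totals were 26118607 to 29568983 per sample. Such totals are normalized and do not give the number of reads. The depth is unknown, so no counting interval is given for any value.

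In WT mice, Gpr139 was far higher in the striatum than in the hippocampus or the cortex. WT cortex held 12.2, 15.3, 24.1, 16.5 and 11.9 normalized counts in replicates 1 to 5, with a mean of 16.0 ± 4.93 (SD, n = 5). WT hippocampus held 28.9, 24.5, 25.1, 33.9 and 44.0 normalized counts, with a mean of 31.3 ± 8.07 (SD, n = 5). WT striatum held 528, 712, 620, 490 and 370 normalized counts, with a mean of 544 ± 130 (SD, n = 5). The regions did not overlap, although the highest cortical and the lowest hippocampal sample were nearly level. By their means, WT striatum was 17.4-fold above WT hippocampus and 34.0-fold above WT cortex.

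On the log2(normalized count + 1) scale, used for every log2 difference given here, WT striatum exceeded WT hippocampus by 4.08 (standard error 0.20, 95% confidence interval 3.67 to 4.48). The adjusted p was 3.88e-21 in limma, fitted to all 9 groups and adjusted over 16708 genes. Of these genes, 56.1% differed between these regions in either direction and 27.8% were higher in the striatum, so a regional difference is common. WT striatum exceeded WT cortex by 5.01 and WT hippocampus exceeded WT cortex by 0.94 (standard error 0.20 for both). These last comparisons use cortical samples and carry no test.

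**Figure D1:**
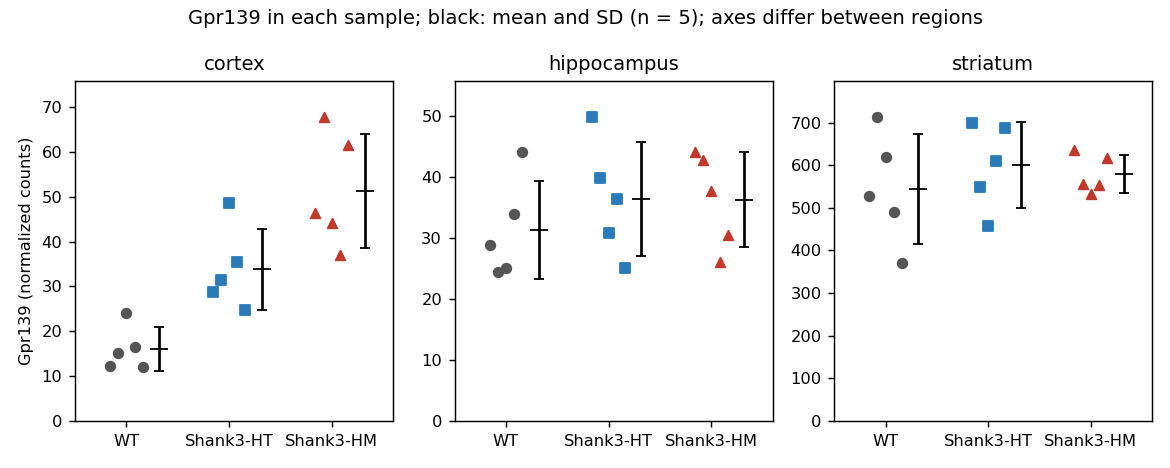
Gpr139 in normalized counts on the y axis for each sample of the cortex, hippocampus and striatum, by genotype on the x axis, with the mean and SD of 5 samples in black and a separate y axis for each region. In the cortex all 10 mutant samples sit above the highest WT sample (24.1), while in the hippocampus and striatum the genotypes overlap.

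In the cortex, Gpr139 was higher in mutant than in WT samples, and higher on average with 2 mutant alleles than with 1. Cortical Shank3-HT samples held 28.8, 31.4, 48.5, 35.4 and 24.7 normalized counts in replicates 1 to 5, with a mean of 33.8 ± 9.10 (SD, n = 5). Cortical Shank3-HM samples held 46.4, 67.7, 44.1, 37.1 and 61.4 normalized counts, with a mean of 51.3 ± 12.7 (SD, n = 5). All 5 Shank3-HT and all 5 Shank3-HM samples lay above all 5 WT samples. Shank3-HT and Shank3-HM samples overlapped, because Shank3-HT replicate 3 lay above 3 of the 5 Shank3-HM samples. Among the 16507 genes tested in the cortex, 0.297% had all Shank3-HT samples above all WT samples and 0.388% all Shank3-HM samples. Gpr139 was selected for this pattern, so nothing is read from these shares.

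The mean of Shank3-HT samples was 2.11 times and that of Shank3-HM samples 3.21 times the WT mean. In normalized counts the step from WT to Shank3-HT was 17.8 and the step from Shank3-HT to Shank3-HM was 17.6, so the steps were of nearly equal size. On the log2 scale the difference was 1.04 for Shank3-HT minus WT (95% confidence interval 0.54 to 1.54) and 1.63 for Shank3-HM minus WT (1.13 to 2.14). Shank3-HM exceeded Shank3-HT by 0.59. The standard error was 0.24 for each, and the slope was 0.82 per mutant allele (standard error 0.12). These are intervals for a difference of means, computed from the samples that picked the gene. Their distance from 0 is therefore not read as a test. Even the Shank3-HM mean in the cortex amounted to 9.44% of the WT striatal mean, against 2.94% for WT and 6.21% for Shank3-HT cortex.

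In the hippocampus, no genotype difference of Gpr139 passed the test. Hippocampal Shank3-HT samples held 49.7, 39.8, 30.7, 36.4 and 25.0 normalized counts, with a mean of 36.3 ± 9.38 (SD, n = 5). Hippocampal Shank3-HM samples held 44.1, 42.7, 37.8, 26.1 and 30.4 normalized counts, with a mean of 36.2 ± 7.79 (SD, n = 5). The 3 genotypes covered nearly the same range, and in each mutant group 1 sample lay above the highest WT sample. Groups lay wholly above WT for 0.447% of the genes in Shank3-HT and 0.471% in Shank3-HM hippocampus, which did not include Gpr139. The log2 difference from WT was 0.21 for Shank3-HT (95% confidence interval -0.26 to 0.67, adjusted p = 0.933 in limma) and 0.21 for Shank3-HM (-0.26 to 0.68, adjusted p = 0.926 in limma). Of the 16571 genes tested there, 0.00603% passed the threshold in each of these contrasts. Shank3-HM minus Shank3-HT was 0.01 (adjusted p = 1 in limma), and the slope was 0.11 per mutant allele (adjusted p = 0.914 in limma).

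In the striatum, where Gpr139 was highest, its genotype differences did not pass the test either. Striatal Shank3-HT samples held 698, 549, 457, 609 and 687 normalized counts, with a mean of 600 ± 101 (SD, n = 5). Striatal Shank3-HM samples held 636, 557, 533, 554 and 617 normalized counts, with a mean of 579 ± 44.6 (SD, n = 5). No mutant sample lay above the highest or below the lowest WT sample. Wholly non-overlapping and higher groups were found for 0.552% of the genes in Shank3-HT against WT, 1.1% in Shank3-HM against WT and 0.746% in Shank3-HM against Shank3-HT striatum, without Gpr139. WT samples spread the widest, between replicate 5 at the bottom and replicate 2 at the top, and Shank3-HM samples the least. The log2 difference from WT was 0.16 for Shank3-HT (95% confidence interval -0.15 to 0.46, adjusted p = 0.858 in limma) and 0.12 for Shank3-HM (-0.18 to 0.43, adjusted p = 0.921 in limma). Of the 16482 genes tested, 0.00607% passed in Shank3-HT and 0.182% in Shank3-HM striatum. Shank3-HM minus Shank3-HT was -0.04 (adjusted p = 0.985 in limma, with 0.14% of genes called), and the slope was 0.06 per mutant allele (adjusted p = 0.924 in limma, with 0.121% called).

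Exact permutation tests of 5 against 5 samples gave two-sided p values of 0.310 to 1 for the 3 hippocampal and 3 striatal contrasts, and 0.762 to 1 after adjustment over these 6. The smallest p this design allows is 0.00794. The upper confidence bounds correspond to at most 1.60-fold in the hippocampus and 1.38-fold in the striatum for either mutant genotype against WT. A p that misses the threshold does not show that the genotypes were alike.

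**Figure D2:**
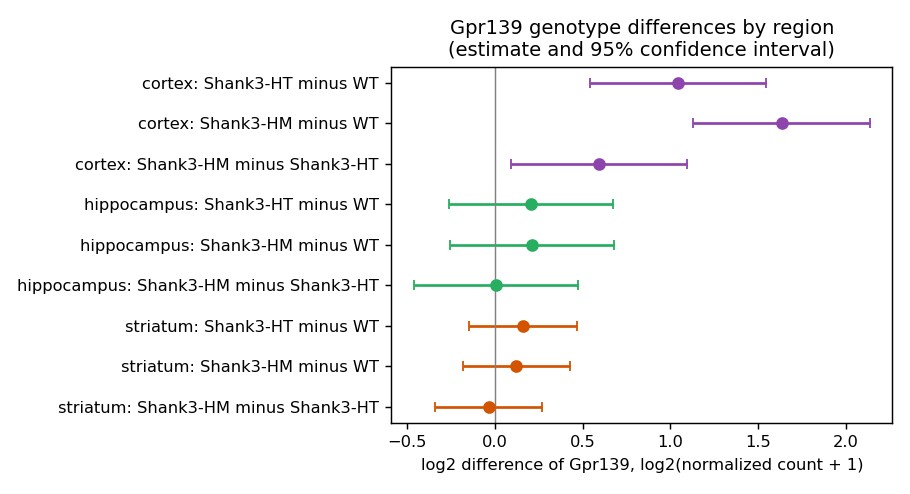
Log2 differences of Gpr139 between genotypes on the x axis, 3 contrasts for each region on the y axis, with points for the estimates and bars for 95% confidence intervals. The cortical estimates (1.04, 1.63 and 0.59) are the values Gpr139 was picked for, so their intervals are not read as a test against 0. The hippocampal and striatal intervals all include 0.

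The mutant effect itself was compared between regions in the fit of all 9 groups. The effect in the striatum minus that in the hippocampus was -0.05 for Shank3-HT (standard error 0.29, adjusted p = 0.997 in limma) and -0.09 for Shank3-HM (adjusted p = 0.999 in limma, with the same standard error). Over all genes, 0% and 0.0718% passed in these comparisons, and 935 and 897 of 16708 genes had an unadjusted p under 0.05. Against the cortex, the Shank3-HM effect was lower by 1.51 in the striatum and by 1.42 in the hippocampus on the log2 scale, and the Shank3-HT effect by 0.88 and 0.83. The standard error was 0.29 for each of these, and they carry no test because the cortical pattern picked the gene.

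Ordered by mean, the 9 groups ran from WT cortex through WT hippocampus, Shank3-HT cortex, Shank3-HM and Shank3-HT hippocampus and Shank3-HM cortex to WT, Shank3-HM and Shank3-HT striatum. Only the steps from WT cortex to WT hippocampus and from Shank3-HM cortex to WT striatum separated neighbours without overlap. Shank3-HT cortex (24.7 to 48.5) spanned about the range of the hippocampal groups (24.5 to 49.7), and Shank3-HM cortex (37.1 to 67.7) reached above it.

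Since WT striatum held so much more Gpr139 than cortex, genes of striatal spiny projection neurons were read in each cortical sample. Drd1 and Drd2 encode the dopamine receptors of the direct and indirect striatal pathways, and Penk encodes the enkephalin precursor. Cortical Drd1 was 143 to 199 normalized counts in WT samples, 119 to 209 in Shank3-HT samples, and 225, 2483, 215, 160 and 214 in Shank3-HM replicates 1 to 5. Cortical Drd2 was 24.8 to 30.6 in WT, 17.2 to 33.7 in Shank3-HT, and 72.0, 1312, 19.6, 31.8 and 29.2 in Shank3-HM replicates. Cortical Penk was 804 to 961 in WT, 638 to 976 in Shank3-HT, and 1009, 10018, 683, 902 and 763 in Shank3-HM replicates.

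All 3 markers set Shank3-HM replicate 2 apart from the other 14 cortical samples, and it was also the cortical sample with the most Gpr139 (67.7). Shank3-HM replicate 1 had the next highest Drd2, and 4 of the 5 Shank3-HM samples lay above the highest WT sample for Drd1. None of the 3 passed the test between genotypes in the cortex: Shank3-HM minus WT was 0.99 for Drd1 (adjusted p = 0.877 in limma), 1.34 for Drd2 (adjusted p = 0.879 in limma) and 0.65 for Penk (adjusted p = 0.892 in limma). Without Shank3-HM replicate 2 these differences were 0.27, 0.29 and -0.07 (adjusted p = 0.939, 0.975 and 0.983 in limma). Shank3-HT minus WT was 0.08, -0.16 and -0.14 for these genes (adjusted p = 1 in limma for each). In the cortex, 0% of all genes passed in Shank3-HT and 0.0121% in Shank3-HM samples, with 443 and 907 genes at an unadjusted p under 0.05. Shank3 itself missed the threshold in Shank3-HT cortex (log2 difference -0.38, adjusted p = 0.288 in limma), although its groups did not overlap. In Shank3-HT striatum it passed narrowly (adjusted p = 0.0494 in limma). A gene that misses this test may therefore still differ between genotypes.

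The wider list of 20 spiny projection neuron genes set the same sample apart. Its summed level was 17638 to 19399 normalized counts in WT cortex, 17358 to 19507 in Shank3-HT cortex and 17761 to 95758 in Shank3-HM cortex. The highest sum was that of Shank3-HM replicate 2, and the next highest in that group was 20397. Drd1, Drd2 and Penk were above 0 in every cortical sample. Of 19 list genes tested, 0 passed in either mutant genotype, and 0 (Shank3-HT) and 2 (Shank3-HM) had an unadjusted p under 0.05. The median log2 difference was 0.63 for Shank3-HM and -0.08 for Shank3-HT, where the median of all genes was -0.00255 and -0.00108. Without Shank3-HM replicate 2 the Shank3-HM median was 0.03, over 17 genes tested, of which 0 passed and 0 had an unadjusted p under 0.05.

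A striatal share was computed for each cortical sample, as its marker level above the WT cortical mean divided by the distance from the WT cortical to the WT striatal mean. In Shank3-HM replicate 2 that share was 27.4% by Drd1, 15.7% by Drd2, 21.8% by Penk and 17.3% by the median of the 20 genes. Single genes of the list ranged from 8.15% to 72.2%. At these shares the WT striatal level of Gpr139 would add 145, 83.0, 115 and 91.4 normalized counts, whereas the sample lay 51.7 above the WT cortical mean.

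In the other 9 mutant cortical samples the share by these 3 markers was small. It ran from -0.59% to 0.67% by Drd1, from -0.13% to 0.54% by Drd2 and from -0.57% to 0.32% by Penk. The Gpr139 that goes with these shares was -3.13 to 3.55 normalized counts by Drd1, -0.67 to 2.87 by Drd2 and -2.99 to 1.70 by Penk. The measured Gpr139 of these samples lay 8.73 to 45.5 above the WT mean, a sign that the choice of the gene fixes. Single genes of the list ranged from -1.38% to 3.56% in these samples. The highest was Ido1 in Shank3-HT replicate 1, where that share goes with 18.8 normalized counts of Gpr139 and the sample lay 12.8 above the WT mean. Shank3-HM replicate 5 had 61.4 normalized counts of Gpr139 at a Drd1 share of 0.53%, and Shank3-HT replicate 3 had 48.5 at 0.10%.

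Without Shank3-HM replicate 2, the cortical Shank3-HM mean was 47.3 ± 10.3 (SD, n = 4, range 37.1 to 61.4). That is 2.96 times the WT mean and 13.5 above the Shank3-HT mean, with 1 of the 4 samples above the highest Shank3-HT sample. The Shank3-HM minus WT difference was 1.48 with Drd1 as a covariate, 1.52 with Drd2 and 1.56 with Penk, compared with 1.63 without any. The Shank3-HT minus WT difference was 1.03, 1.05 and 1.06. The Shank3-HM minus Shank3-HT difference was 0.45 with Drd1 (standard error 0.25), 0.47 with Drd2 (0.26) and 0.50 with Penk (0.25), compared with 0.59 (0.24) without any. It was 0.49 (0.25) without Shank3-HM replicate 2 and without a covariate. The covariate fits include that sample, whose marker levels lay far above all other cortical samples, so they lean on it.

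**Figure D3:**
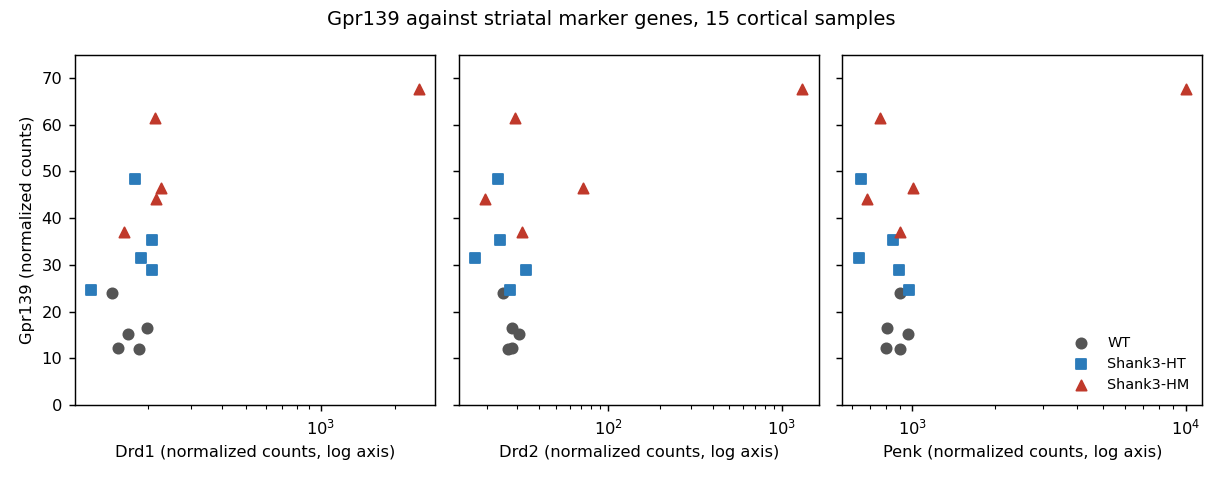
Gpr139 in normalized counts on the y axis against Drd1, Drd2 and Penk in normalized counts on log x axes, with a point for each of the 15 cortical samples and colour and shape for the genotype. Shank3-HM replicate 2 stands far to the right in every panel (Drd1 2483, Drd2 1312, Penk 10018), and Shank3-HM replicate 1 lies to the right of the WT samples in the Drd2 panel (72.0).

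Within genotypes, no relation between Gpr139 and these markers passed the test in the cortex. Genotype means were removed and values were permuted within genotypes, so the genotype steps that picked the gene do not enter this test. In this form, Pearson's r over the 15 cortical samples was 0.42 for Drd1 (permutation p = 0.0957), 0.32 for Drd2 (permutation p = 0.315) and 0.29 for Penk (permutation p = 0.404). Spearman's rho was 0.33, -0.09 and 0.05 (permutation p = 0.213, 0.774 and 0.851). Adjusted over the 9 relations of 3 markers in 3 regions, the permutation p was 0.287, 0.406 and 0.455 for r and 0.446 to 0.851 for rho. Without the 2 samples farthest from the marker's median, 1 of which was Shank3-HM replicate 2 each time, r was -0.10, -0.23 and -0.43.

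In the hippocampus r was -0.10 for Drd1, 0.30 for Drd2 and -0.42 for Penk (permutation p = 0.749, 0.305 and 0.136, or 0.306 to 0.749 adjusted over 9). Spearman's rho was -0.20, 0.25 and -0.46 (permutation p = 0.506, 0.408 and 0.112, or 0.446 to 0.650 adjusted). Without the 2 farthest samples r was -0.43, 0.61 and -0.56. The list of spiny projection neuron genes summed to 18715 to 18927 normalized counts in WT, 17869 to 19336 in heterozygous and 18443 to 18889 in homozygous hippocampus, so no hippocampal sample stood apart by it.

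In the striatum, Gpr139 was higher in samples with more Penk, though this did not pass after adjustment over all 9 relations. Pearson's r with genotype means removed was 0.78 (permutation p = 0.00994, adjusted 0.0298 over the 3 markers of the region and 0.0895 over 9 relations). Spearman's rho was 0.65 (permutation p = 0.0336, adjusted 0.101 over 3 and 0.303 over 9). Without Shank3-HT replicate 3 and WT replicate 2, the samples farthest from the Penk median, r was 0.56. For Drd1, r was 0.40 (permutation p = 0.212, adjusted 0.382) and rho 0.36 (permutation p = 0.224, adjusted 0.446), with r = 0.33 without the 2 farthest samples. For Drd2, r was 0.61 (permutation p = 0.0696, adjusted 0.287) and rho 0.36 (permutation p = 0.248, adjusted 0.446). Without WT replicate 5 and Shank3-HT replicate 3, the Drd2 r was -0.18, so that relation rests on these samples.

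Striatal WT replicate 5 had the least Gpr139 of the 15 striatal samples (370). In that sample Drd1 was 7318 against 8758 to 9122 in the other WT striatal samples, Drd2 was 6469 and Penk was 33624, the lowest WT value of each. Its claustrum list summed to 11462 normalized counts, against 6434 to 6884 in the other 4 WT striatal samples and 5333 to 8417 over both mutant groups. Nr4a2, a marker of claustrum and deep lateral cortex, was at 1280, against 144 to 332 in the other WT samples. Striatal Shank3-HT replicate 5, with 687 normalized counts of Gpr139, also stood apart. Its choroid plexus list summed to 68983, where the median of its group was 661. Its medial habenula list summed to 1067, against at most 1053 in WT and 1059 in Shank3-HM striatum. The part of dissection in the spread of striatal Gpr139 was not tested.

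**Figure D4:**
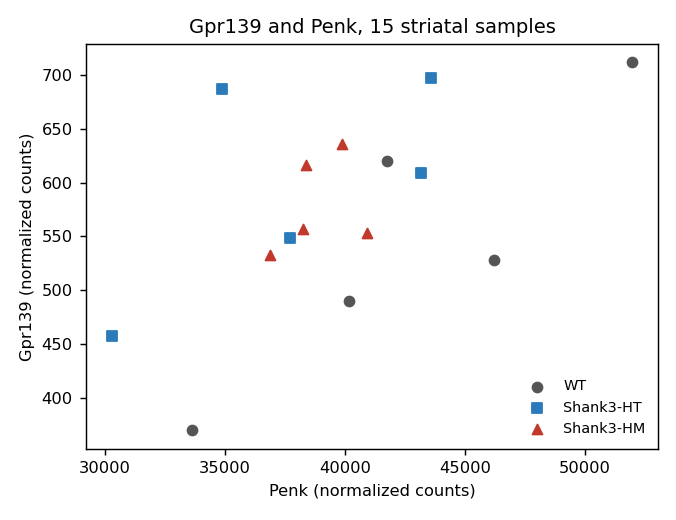
Gpr139 on the y axis against Penk on the x axis, both in normalized counts and neither axis starting at 0, with a point for each of the 15 striatal samples and colour and shape for the genotype. WT replicate 5 (Penk 33624, Gpr139 370) and WT replicate 2 (Penk 51967, Gpr139 712) mark the low and high ends of the WT samples.

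Markers of cortical cell types and of other brain tissue were read beside the cortical Gpr139 values. Fezf2, Tle4 and Foxp2 head the list of 8 deep layer projection neuron genes, which summed to 9273 to 10292 normalized counts in WT, 8822 to 10312 in heterozygous and 9788 to 13290 in homozygous cortex. Cux2, Rasgrf2 and Rorb head the list of 8 upper layer genes, which summed to 25831 to 28692 in WT, 21958 to 28868 in heterozygous and 20855 to 26544 in homozygous cortex. The deep layer sum was higher and the upper layer sum lower in most Shank3-HM samples, while Shank3-HT samples overlapped the WT range. The highest deep layer sum was again that of Shank3-HM replicate 2, and the other 4 Shank3-HM samples summed to 9788 to 11712. This list is not specific to cortex: Foxp2 had a WT median of 2075 in the striatum and 253 in the cortex, and Tle4 3227 and 1082. In Shank3-HM replicate 2, 4 of the 8 genes lay above the other Shank3-HM samples (Tle4, Foxp2, Bcl11b and Crym), 3 below them (Fezf2, Sulf2 and Hs3st4) and Tshz2 among them. No gene of either list passed the test in the cortex. Of 8 tested in each list, 2 deep layer and 3 upper layer genes had an unadjusted p under 0.05 in Shank3-HM samples, and the medians were 0.18 and -0.24, or 0.17 and -0.20 without replicate 2. The part of cortical layer content in the Gpr139 values was not tested.

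The medial habenula list, for the nucleus where Gpr139 is best known, summed to 2415 to 2913 normalized counts in WT, 2116 to 3058 in heterozygous and 2253 to 2880 in homozygous cortex. Of its defining genes Tac2 and Gpr151 were above 0 in every cortical sample, and Chrnb4 was listed at 0 in 1 WT sample and at most 7.02 in any other. Its median log2 difference was 0.03 for Shank3-HT and 0.05 for Shank3-HM over 6 genes tested. The 3 genotypes overlapped in this list, and none of its genes passed the test. The list summed to less in WT hippocampus (1476 to 1736) and WT striatum (542 to 1053) than in WT cortex. No habenular sample was measured, so these sums do not gauge habenular tissue in the cortical samples.

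The median log2 differences in Shank3-HT and Shank3-HM cortex were 0.02 and 0.12 for the septum list, -0.08 and 0.11 for the claustrum list, and 0.05 and 0.06 for the thalamus list. They were -0.02 and 0.05 for the interneuron list and 0.22 and 0.57 for the choroid plexus list. The hypothalamus list had 1 gene tested, at -0.22 and -0.19. None of these genes passed the test, over 8, 7, 8, 8, 3 and 1 tested, and 0 in Shank3-HT and 2 in Shank3-HM samples had an unadjusted p under 0.05. Shank3-HM replicate 2 held the highest Shank3-HM sum for all of these lists. Its interneuron sum was 34573 normalized counts, where WT cortex had 22007 to 23062. Of the 8 interneuron genes, Gad1, Gad2, Slc32a1 and Lhx6 were above the other Shank3-HM samples there, and Sst, Pvalb, Vip and Npy were below them. Without this sample the Shank3-HM medians were 0.03 for septum, 0.07 for claustrum, -0.04 for thalamus, -0.02 for interneuron, 0.07 for choroid plexus and -0.23 for hypothalamus.

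Genes of Gq signalling, other G protein alpha subunits, receptor desensitization, opioid, melanocortin and dopamine signalling, amino acid transport and other orphan receptors were read in every region, and none passed the test between genotypes. Over 8 such lists with 111 genes beside Gpr139, 96 were in the table. In the cortex 88 were tested and 0 passed in Shank3-HT or Shank3-HM, with 3 and 5 at an unadjusted p under 0.05, which is 3.41% and 5.68% against 2.68% and 5.49% of all genes. In the hippocampus 90 were tested and 0 passed, with 5 and 4 at an unadjusted p under 0.05, or 5.56% and 4.44% against 5.26% and 4.73% of all genes. In the striatum 91 were tested and 0 passed, with 12 and 7 at an unadjusted p under 0.05, or 13.2% and 7.69% against 7.43% of all genes in each contrast. The genes named next from these lists were taken for their unadjusted p, after their values were seen, and none is a call.

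Among the Gq proteins and their effectors, 16 of 17 genes were tested in the cortex and the median log2 difference was -0.03 in Shank3-HT and -0.08 in Shank3-HM. Gnaq, the Gq alpha subunit, averaged 6232 ± 174 normalized counts in WT cortex, 5961 ± 362 in Shank3-HT cortex and 5915 ± 493 in Shank3-HM cortex (SD, n = 5 each). Among other G protein alpha subunits the cortical medians were -0.04 and -0.03, over 9 genes tested.

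Arrestins and receptor kinases, which switch off active receptors, had cortical medians of -0.02 and -0.05 over 7 genes. Grk5, a receptor kinase, was at -0.18 in Shank3-HT and -0.15 in Shank3-HM cortex (unadjusted p = 0.0126 and 0.0278, adjusted p = 1 and 0.877 in limma). The 8 genes of the opioid system had cortical medians of -0.05 and 0.12 (0.03 without Shank3-HM replicate 2), and the 4 melanocortin genes tested had -0.05 and 0.01. Oprk1, the kappa-opioid receptor, was at 1266 ± 177 in WT and 910 ± 208 in Shank3-HT striatum, a log2 difference of -0.49 (unadjusted p = 0.00136, adjusted p = 0.566 in limma). In the hippocampus, Oprk1 was at 0.57 in Shank3-HT samples (unadjusted p = 0.0204, adjusted p = 0.926 in limma). Pcsk1, which cleaves the precursor of melanocortins, was at 0.35 in Shank3-HT and 0.38 in Shank3-HM hippocampus (unadjusted p = 0.00243 and 0.00116, adjusted p = 0.849 and 0.740 in limma).

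The transporters that carry aromatic amino acids had cortical medians of 0.02 and -0.02 over 7 genes, and the 3 dopamine receptors tested had -0.15 and 0.99, the latter falling to 0.29 without Shank3-HM replicate 2. Among the other orphan class A receptors, 34 were tested in the cortex with medians of -0.01 and 0.05. Gpr63 was at 0.55 in Shank3-HM cortex (unadjusted p = 0.0284) and Gpr161 at 0.26 (unadjusted p = 0.0393), with an adjusted p of 0.877 in limma for both. In the hippocampus and striatum the medians of all 8 lists lay between -0.08 and 0.16. Gpr153 in Shank3-HM striatum had the smallest unadjusted p of all these genes, with 465 ± 33.4 normalized counts in WT and 571 ± 48.4 in Shank3-HM samples and a log2 difference of 0.29 (adjusted p = 0.194 in limma).

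The same genes differed widely between regions. Of 90 tested, 32 were higher and 32 lower in WT striatum than in WT hippocampus, where 27.8% of all genes were higher and 28.3% lower. Among the orphan receptors, Gpr139 had a difference of 4.08 in favour of the striatum. Gpr6, a receptor of indirect pathway neurons, had a larger difference, 7.45 (standard error 0.52, adjusted p = 2.28e-16 in limma). Gpr149 at 3.28 and Gpr83 at 2.87 came after Gpr139. At the other end stood Gpr161 at -3.42 and Gpr22 at -2.63, both higher in the hippocampus.

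**Figure D5:**
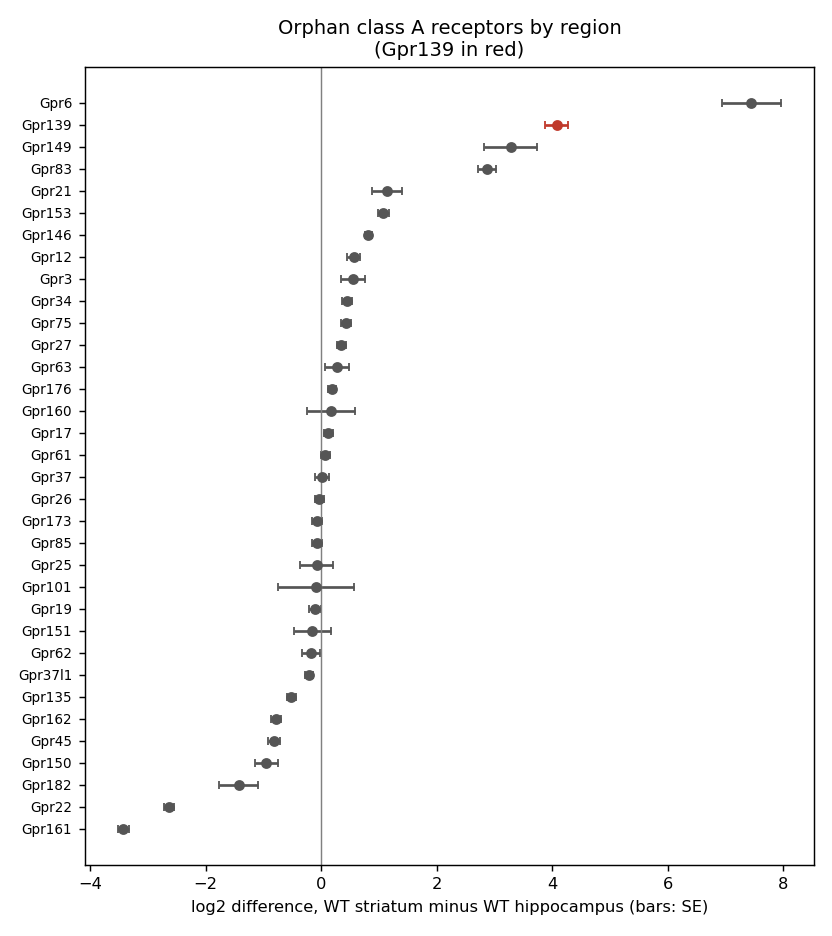
Log2 difference of WT striatum minus WT hippocampus on the x axis for 34 orphan class A receptors on the y axis, ordered by the difference, with bars for the standard error. Gpr139 (red, 4.08) stands between Gpr6 (7.45) and Gpr149 (3.28).

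The counts of each list are given beside the same background of 27.8% of all genes higher and 28.3% lower, and nothing particular to a list is read from them. Of 17 Gq signalling genes, 6 were higher and 7 lower in WT striatum than in WT hippocampus. Itpr1, the inositol trisphosphate receptor, was higher by 1.71 (adjusted p = 4.51e-20 in limma) and Plcb1, a phospholipase C, by 1.04 (adjusted p = 1.46e-15 in limma), whereas Gnaq was lower, at -0.86 (adjusted p = 5.31e-17 in limma). Of 8 opioid genes, 5 were higher and 2 lower, led by Penk at 6.36 and Oprk1 at 5.17. Oprm1, the mu-opioid receptor, was higher by 2.72 (standard error 0.34, adjusted p = 5.10e-09 in limma). Of the 7 aromatic amino acid transporters tested, 0 were higher and 4 lower. Slc16a10, a transporter of aromatic amino acids, was at -1.76 (adjusted p = 1.22e-07 in limma).

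Arrestins and receptor kinases had 2 higher and 4 lower of 7, other G protein alpha subunits 2 higher and 4 lower of 9, melanocortin genes 1 higher and 2 lower of 4, and dopamine receptors 3 higher and 1 lower of 4. Gnal, the striatal stimulatory alpha subunit, was higher by 2.95 and Mc4r, a melanocortin receptor, lower, at -2.27. The striatum thus held more Gpr139 together with more Itpr1, Plcb1 and Oprm1 and with less Gnaq and Slc16a10 than the hippocampus.

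The genes most like Gpr139 were sought by Pearson's r of log2 levels, as a description. Over the 15 cortical samples, the highest of 16506 genes were Nrtn (0.88), Gpx1 (0.83), M6pr (0.82), Arhgap11a (0.81) and Acaa1b (0.79). These samples share the genotype steps that picked Gpr139. Nrtn, which encodes the neurotrophic factor neurturin, averaged 10.1 ± 1.93 normalized counts in WT cortex, 15.3 ± 4.50 in Shank3-HT cortex and 20.01 ± 5.13 in Shank3-HM cortex (SD, n = 5 each). Drd1 (0.50), Drd2 (0.42) and Penk (0.34) came at places 586, 1146 and 2069.

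Over all 45 samples, where the difference between striatum and the other regions sets most of r, the highest of 16707 genes were St8sia3, Spock3, S100pbp, Dach1 and Tle4 (each 0.97). St8sia3 encodes a sialyltransferase and was at 17032 ± 1972 normalized counts in WT striatum and 3203 ± 245 in WT cortex (SD, n = 5 each). Drd2 (0.96) came at place 39, Drd1 (0.95) at 144 and Penk (0.94) at 192. With the 9 group means removed, the highest were Ghr, the growth hormone receptor (0.61), Tead3 (0.58), Gtf2ird1 (0.58), Il13ra1 (0.56) and A230087F16Rik (0.56). Once regions and genotypes were taken out, no gene followed Gpr139 as closely, and Drd1, Drd2 and Penk had r of 0.26, 0.26 and 0.17.

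No measured neighbour of Gpr139 on chromosome 7 passed the test between genotypes. Of the 5 annotated genes on each side, 4 were in the table: Gprc5b, Gm44763, Iqck and Knop1. The nearest of them, Gprc5b, another orphan receptor gene, lies 145535 bases away. It averaged 3683 ± 303 normalized counts in WT cortex, 3746 ± 395 in Shank3-HT cortex and 3551 ± 198 in Shank3-HM cortex (SD, n = 5 each). Its log2 difference from WT was 0.02 in Shank3-HT (adjusted p = 1 in limma) and -0.05 in Shank3-HM cortex (adjusted p = 0.939 in limma). The other 3 were between -0.12 and 0.14 in the cortex, with adjusted p values of at least 0.940 in limma. In the striatum Gprc5b was at 0.25 in Shank3-HT samples (unadjusted p = 0.0351, adjusted p = 0.659 in limma). Gm44763 lies antisense within Iqck. The libraries were stranded, and how well reads of that pair were separated was not checked.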

How the data were processed

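RNA from 45 samples (9 groups of 5) was sequenced after TruSeq stranded mRNA library preparation. The authors quantified transcripts with Salmon 1.1.0 (quasi-mapping, GC bias correction), imported them with tximport and normalized them with DESeq2. The authors' processing notes give DESeq2 1.26.0, R 3.6.2 and GRCm38, and the authors' methods name later releases of R and DESeq2. The deposited signal values are these normalized counts with decimals. Whole reads could not be recovered: at the best step per sample, 12.1% to 26.0% of low values lay within 0.05 of a whole multiple, where 10% would by chance. Count models were therefore not applied, and depth is unknown.

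Values were taken as log2(value + 1), which understates fold changes of low genes such as cortical Gpr139. The test was limma 3.58.1 in R 4.3.3 (intensity trend), per region on genes averaging 10 or more, or on all 45 samples for differences between regions. It was two-sided, with Benjamini-Hochberg adjustment over all genes tested and a threshold of 0.05. p values rest on the spread between samples, which were taken as separate mice. Exact permutation tests compared 5 against 5 samples. Correlations used 100000 permutations within genotype. The fit was also run on simulated independent normal values with known differences. Those values hold no outlying sample and no shared mouse, so that run does not cover either. Matplotlib drew the figures.

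The gene and all lists were chosen with earlier results of these data known. Named were Gpr139, Shank3, Drd1, Drd2, Penk, Gpr142, list genes passing the test, the leading genes of marker lists, the 5 genes most like Gpr139 in each of 3 sets, and the 5 annotated neighbours on each side. Other genes, such as those given for an unadjusted p, for a regional difference or for their place in 1 sample, were named after their values were seen. Of the lists, 9 genes are on both a pathway and a marker list. The replicate numbers were not taken to pair the samples, although a shared mouse across regions remains possible: deviations of same-numbered samples correlated at -0.12 to 0.15 within a region (7 of 45 pairs over 0.1) and at -0.10 to 0.23 across regions within a genotype (16 of 45). Alternatives were other pseudocounts, no filter, no trend, quantile normalization, fits of 2 groups, a replicate block, marker covariates and each sample left out. The covariate of the striatal list, the list counts, list medians and marker differences without single doubted samples and the alternatives for slopes and region differences were added after seeing the data. No sequence is shown, and a few list genes are not reported here.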

Additional observations from a re-analysis of the deposited data

Results flagged for a closer look

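Drd1, Drd2 and Penk were each far above the other Shank3-HM cortical samples in Shank3-HM replicate 2. Drd1 was 2483 normalized counts there against 160 to 225 in the other 4 samples, Drd2 was 1312 against 19.6 to 72.0, and Penk was 10018 against 683 to 1009. The same sample had the highest cortical Gpr139, at 67.7 normalized counts. Drd1 was also low in WT replicate 5 of the striatum, at 7318 normalized counts against 8758 to 9122 in the other 4 WT samples, and that sample had the lowest striatal Gpr139, at 370. Shank3 was low in Shank3-HM replicate 5 of the striatum, at 4569 normalized counts against 5883 to 6242 in the other 4 samples, and Gpr139 was 617 in replicate 5. In each case the distance of 1 sample from the nearest of its group was large for a group of 5. Among 45 groups of 5 samples examined, of Gpr139, Shank3 and these 3 markers, 5 stood out, where chance gives about 1 in 20. No Gpr139 group stood out in this way.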

How the results depend on the processing

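In the cortex, 88 of 88 alternative values of the Gpr139 differences and slope moved by less than 1 SD and kept their direction, from 0.89 to 1.19 for Shank3-HT minus WT, from 1.42 to 1.79 for Shank3-HM minus WT, from 0.45 to 0.73 for Shank3-HM minus Shank3-HT and from 0.71 to 0.88 for the slope. The striatal list as a covariate gave 1.05 and 1.53. Over 196 alternatives of the hippocampal, striatal and between-region mutant contrasts, 0 passed the threshold in limma, with adjusted p values of at least 0.784. Near-zero differences turned sign: Shank3-HM minus Shank3-HT in the hippocampus was -0.0458 with quantile normalization. With each sample left out in turn, that difference was -0.116 to 0.125, and in the striatum it was -0.131 to 0.0218. Likewise, striatal Shank3-HM minus WT was -0.00874 to 0.227 and the striatal slope -0.00567 to 0.108, and the striatal minus hippocampal effect was -0.178 to 0.0721 for Shank3-HT and -0.220 to 0.0158 for Shank3-HM. The cause was not tested. WT striatum minus WT hippocampus was 3.91 to 4.21 over 16 alternatives. Pathway list genes passing stayed at 0 in all 48 alternatives run. With a replicate block, the Gpr139 difference of Shank3-HM minus WT was 1.63 in the cortex, 0.21 in the hippocampus (adjusted p = 0.883 in limma) and 0.12 in the striatum (adjusted p = 0.877 in limma), and the block changed no call. Unknown depth leaves the counting error of the low cortical values unstated.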
